A study of Canis lupus familiaris with 45 samples.

Results

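The cytosolic ribosome and the translation factors were followed in the left ventricle of dogs during heart failure caused by rapid pacing. The members were the probe sets that the array's annotation assigns to a single gene symbol starting with RPL, RPS, EIF or EEF, without the RPS6K kinases. They numbered 266 of the 23836 probe sets that are not controls, and stood for 113 of 6540 genes named by a single symbol. Large subunit symbols (RPL) had 112 probe sets for 40 genes, small subunit symbols (RPS) 71 for 27 genes, initiation symbols (EIF) 74 for 40 genes and elongation symbols (EEF) 9 for 6 genes. Another 12 probe sets with several symbols and 4 of RPS6K kinases were left out.

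The 15 dogs were male and age-matched, with 3 dogs in each of 5 groups. Day-0 dogs were not paced, and Day-3, Week-1, Week-2 and End-stage dogs were paced at the right ventricle at 240 pulses per minute for 3 days, 1 week, 2 weeks and 3 to 4 weeks. Pacing began a day or more after a thoracotomy that fixed the lead to the heart, and failure at End-stage was checked by pressure and flow measurements. The labels give no genotype or breed, and do not say whether Day-0 dogs had the operation. RNA was isolated 3 times from the ventricular tissue of each dog, and each isolation had its own array, which gave 45 arrays. The dog was the replicate, and all values below are means of the 3 arrays of a dog on the log2 signal scale unless a linear scale is named.

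The ribosome is built from a small subunit, which reads the messenger RNA, and a large subunit, which joins the amino acids; each holds ribosomal RNA and a fixed set of proteins. Initiation factors bring the messenger, the starting transfer RNA and the small subunit together: EIF4 factors act at the cap, EIF2 carries the starting transfer RNA, and EIF3 is a large scaffold on the small subunit. Elongation factor EEF1 delivers each further transfer RNA, with EEF1A1 as its carrier and EEF1B2, EEF1D and EEF1G as parts of the exchange complex that recharges it. In the heart this machinery is known to set the capacity for protein synthesis during growth of the muscle cells.

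Ribosomal protein messengers were among the brightest signals of the ventricle. The tested large subunit probe sets had a median log2 signal of 10.7 and the small subunit probe sets 10.6, against 8.24 for initiation and 8.08 for elongation factors. Of these, 58.1%, 63.0%, 26.7% and 33.3% lay in the brightest 10% of all tested probe sets. Signals of different probe sets depend on their probes, so the order of genes by signal is not an order of abundance. The sum over all ribosomal protein probe sets took 4.70% to 5.76% of the summed signal of a dog's arrays.

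Of the members, 216 probe sets of 107 genes passed a filter on mean signal over all dogs that removed the dimmest 40%, and 50 did not. The genes without a tested probe set were RPL11, RPL31, RPS24, RPS6, EIF3I and EIF4EBP2. Other genes with a distinct role, such as RPL3L, RPLP0, EEF1A2, EEF2, EIF4G1 and EIF4A1, had no member probe set. The tested symbols RPL26L1, RPL36AL, RPS27L and RPS19BP1 name paralogues or a binding protein, and RPL18P a pseudogene form. Of the 216 tested probe sets, 119 carried the array maker's suffix for probes that can match more than 1 transcript. Ribosomal protein genes have many processed copies in mammalian genomes, so the signal of such a probe set may be shared between copies.

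The median signal per array was between 33.3 and 48.5, and the 3-prime over 5-prime ratio of the GAPDH control, a sign of RNA quality, averaged 0.965, 0.946, 0.945, 0.933 and 0.957 in Day-0, Day-3, Week-1, Week-2 and End-stage dogs. The same ratio of the actin control averaged 0.161, 0.186, 0.200, 0.210 and 0.209 in these groups, and its part in the results was not tested. The tissue label was checked on 15 cardiomyocyte markers, of which 10 were tested, and the other 5 (MYH6, TNNI1, PLN, MYBPC3 and CKM) were without a tested probe set. The summed linear signal of the 10 tested markers was 69680 to 104000 in paced dogs and 75000 to 112300 in Day-0 dogs, so that the ranges overlapped. All 10 lay below Day-0 at each stage, with median log2 changes of -0.11, -0.19, -0.15 and -0.16 at Day-3, Week-1, Week-2 and End-stage. None of them passed the limma test used below, and their part in the results was not tested. Among other cell types, the summed signal of smooth muscle markers was 5102 to 5437 in End-stage dogs and 6369 to 8239 in Day-0 dogs. That of endothelial markers was 4534 to 5010 in Week-1 dogs and 5280 to 6210 in Day-0 dogs. Median log2 changes at Day-3, Week-1, Week-2 and End-stage were 0.42, 0.49, 0.30 and 0.34 for 6 fibroblast markers. For 8 macrophage and leukocyte markers they were 0.42, 0.21, 0.19 and 0.19. The part of these cell types in the results below was not tested. In tissue RNA of this kind, fewer cells of a type and less RNA per cell cannot be told apart. Of the 45 arrays, 39 were nearest to an array of their own dog by Pearson correlation over all tested probe sets. Among the 6 arrays from dog 1 at Week-1 and dog 1 at End-stage, 2 were nearest to an array of the other dog, so results are also given without this pair. Of all 6 arrays that were not nearest to their own dog, 5 were nearest to a dog of the same number in another group.

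Pacing left the ribosomal protein messengers as a class close to their unpaced level at every stage. Each gene was represented by its brightest tested probe set, and the 38 large subunit genes had a median log2 change against Day-0 of -0.02 at Day-3, -0.02 at Week-1, -0.00 at Week-2 and 0.00 at End-stage. For the 25 small subunit genes the medians were -0.01, -0.01, 0.01 and 0.02. Over all 14302 tested probe sets the medians were 0.00, -0.03, -0.01 and -0.02. Of the large subunit genes, 17, 18, 18 and 21 of 38 lay above Day-0 at the 4 stages, and of the small subunit genes 12, 11, 13 and 15 of 25. Leaving out 1 dog moved the large subunit median to between -0.11 and 0.12 at Day-3 and between -0.08 and 0.12 at End-stage. The small subunit median then lay between -0.06 and 0.12 at Day-3 and between -0.05 and 0.16 at End-stage, with the highest values of both classes without dog 1 of the paced group.

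No member of any class passed the test against Day-0 at any stage. With limma and Benjamini-Hochberg adjustment over all tested probe sets, 0 of 216 members were called at Day-3, beside 0% of all probe sets. The counts were 0 of 216 at Week-1 beside 0.028%, 0 at Week-2 beside 0.0839%, 0 at End-stage beside 0.014%, and 0 for the mean of the 4 paced groups beside 0.301%. A moderated F test over the 5 groups also called 0 members, beside 0% of all probe sets. At an unadjusted p under 0.05, members numbered 6 at Day-3 (2.78%, beside 8.07% of all probe sets), 8 at Week-1 (3.7%, beside 9%), 9 at Week-2 (4.17%, beside 11.2%) and 12 at End-stage (5.56%, beside 8.23%). For the mean of the paced groups they numbered 11 (5.09%, beside 11.7%), and in the F test 7 (3.24%, beside 7.37%).

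The width of the intervals says how large a change could have gone unseen. The 95% interval of the log2 change lay wholly within a 2-fold change either way for 103, 104, 103 and 103 of the 107 genes at Day-3, Week-1, Week-2 and End-stage. It lay within a 1.5-fold change for 85, 84, 80 and 79 genes, or 79.4%, 78.5%, 74.8% and 73.8%. Among all 14302 tested probe sets, 40.1%, 39.1%, 38.6% and 39.9% had an interval that narrow. That set was not cut to the brightest probe set of each gene, so the shares are not of like sets. The intervals of the other genes reached past 1.5-fold, by their width or because the estimate lay away from 0, so a change of that size was not excluded for them.

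**Figure D1:**
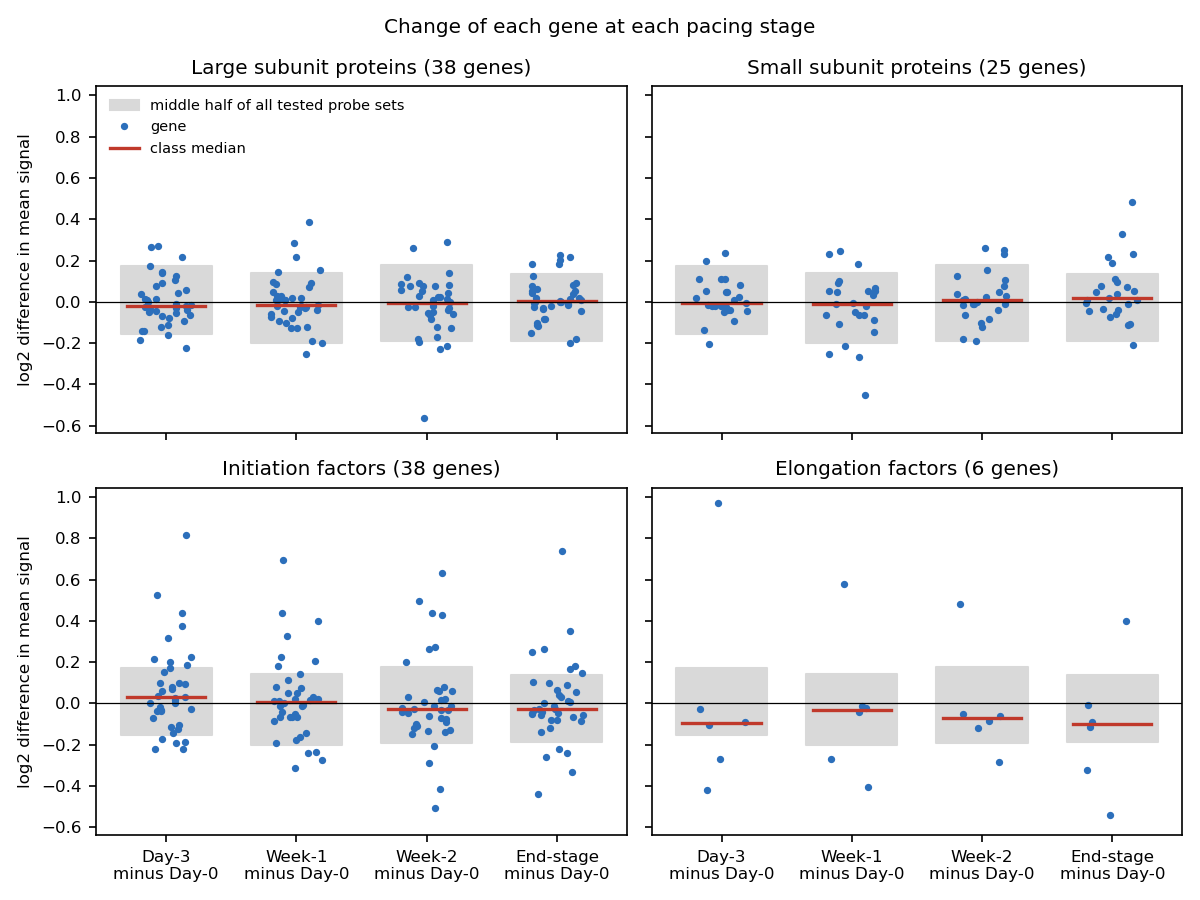
Log2 difference in mean signal of each gene (points, brightest tested probe set) between each paced group and Day-0, by class; the red line is the class median and the grey box the middle 50% of all tested probe sets. Class medians lie between -0.02 and 0.02 for ribosomal proteins and between -0.03 and 0.03 for initiation factors, and 5 of 6 elongation genes lie below 0 at each stage.

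Among large subunit proteins, RPL21 had the smallest p of all members at Week-1. RPL21 is a core protein of the large subunit and had 2 tested probe sets. The dimmer of them read 8.10, 8.06 and 8.38 in Day-0 dogs, 8.53, 8.50 and 8.51 in Day-3 dogs, 8.55, 8.74 and 8.64 in Week-1 dogs, 8.55, 8.25 and 8.25 in Week-2 dogs, and 8.55, 8.27 and 8.27 in End-stage dogs. All Day-3 and Week-1 dogs lay above all Day-0 dogs, and the later groups overlapped with Day-0. The Week-1 difference was 0.46 (SE 0.13, limma adjusted p = 0.254). The brighter RPL21 probe set differed by 0.03 (SE 0.22) at Week-1, so the pair did not show the same change.

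RPL35, another core protein, had 3 tested probe sets, of which the brightest and the dimmest differed in pattern. The brightest read 11.47 to 11.98 in the 12 paced dogs against 11.79 to 12.06 in the Day-0 dogs, with log2 changes between -0.25 and -0.18. The dimmest read 4.20, 5.59 and 4.94 in Day-0 dogs, 3.52, 4.02 and 4.48 in Day-3 dogs, 4.38, 5.31 and 5.61 in Week-1 dogs, 3.47, 3.62 and 4.28 in Week-2 dogs, and 5.07, 5.48 and 4.84 in End-stage dogs. Its group mean was lower at Day-3 and Week-2 than in the other groups, near the lower limit of tested signal. The dogs overlapped, since Day-0 dog 1 (4.20) lay below the highest Day-3 dog (4.48) and the highest Week-2 dog (4.28). The change of this probe set was -1.12 (SE 0.41) at Week-2 against Day-0, with a limma adjusted p of 0.319.

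RPL26L1, a close paralogue of RPL26, read 5.89, 5.93 and 6.30 in Week-2 dogs, against 6.64, 6.23 and 6.93 in Day-0 dogs. The Week-2 range crossed that of Day-0 only between 6.23 and 6.30. Its change was -0.56 (SE 0.25, adjusted p = 0.42), the lowest of a large subunit gene in any comparison with Day-0 when each gene was taken by its brightest probe set. By the same measure RPL10A held the highest, 0.39 (SE 0.28) at Week-1, where its 3 dogs read 7.45, 7.65 and 7.50 against 6.55, 7.63 and 7.26 in Day-0 dogs. Leaving out 1 dog moved this change to between 0.09, without Day-0 dog 1, and 0.63, without Day-0 dog 2.

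RPL3, which lies close to the catalytic centre, changed by 0.22, -0.02, 0.04 and 0.04 at the 4 stages, each with an SE of 0.17. The stalk proteins RPLP1 and RPLP2, which bind elongation factors, stayed within 0.13 of Day-0: RPLP1 changed by -0.03, -0.13, -0.03 and -0.00 (SE 0.18) and RPLP2 by -0.10, -0.09, -0.12 and -0.05 (SE 0.19). RPL12, at the base of the stalk, changed by -0.18, -0.20, -0.23 and -0.20 (SE 0.15) by its brightest probe set. Of its 3 tested probe sets, 1 lay above Day-0 at Day-3 (0.04) and 1 at Week-2 (0.07). RPL22, which is also an RNA-binding protein outside the ribosome, read 6.06, 6.04 and 5.96 in Day-3 dogs against 5.75, 5.79 and 5.72 in Day-0 dogs, without overlap, a change of 0.27 (SE 0.20, adjusted p = 0.84). None of these differences passed the threshold.

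Among small subunit proteins, RPS16 had several probe sets that moved between stages. Its brightest probe set read 11.39, 11.47 and 11.50 in Day-0 dogs, 11.01, 11.78 and 11.50 in Day-3 dogs, 11.24, 11.15 and 10.62 in Week-1 dogs, 11.73, 11.63 and 11.79 in Week-2 dogs, and 11.34, 11.68 and 11.31 in End-stage dogs. All Week-1 dogs lay below all Day-0 dogs, with a change of -0.45 (SE 0.19, adjusted p = 0.494), and all Week-2 dogs lay above them. Of its 7 tested probe sets, 3 had this low at Week-1 followed by a high at Week-2.

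For Week-2 against Week-1, those RPS16 probe sets changed by 0.71, 0.55 and 0.59, each with an adjusted p of 0.76. The other 4 RPS16 probe sets did not have this pattern: at Week-1 against Day-0 they changed by 0.13, -0.06, 0.12 and 0.11. Over the consecutive stages, 0 of 216 members were called by limma at Week-1 against Day-3, 0 at Week-2 against Week-1 and 0 at End-stage against Week-2, beside 0% of all probe sets each time. At an unadjusted p under 0.05 they numbered 4, 7 and 9, or 1.85%, 3.24% and 4.17% of members, beside 4.82%, 5.78% and 4.2% of all probe sets.

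RPS27, a zinc-finger protein of the small subunit, was read by a dimmer probe set at 8.85, 8.55 and 8.88 in End-stage dogs, against 7.79, 8.15 and 8.12 in Day-0 dogs. The groups did not overlap, and the change was 0.74 (SE 0.24, adjusted p = 0.339). The brighter RPS27 probe set changed by 0.23 (SE 0.22) at End-stage. RPS10 had the highest End-stage change of a small subunit gene by its brightest probe set, 0.48 (SE 0.25), with 7.09, 7.13 and 7.42 in End-stage dogs against 6.42, 6.92 and 6.84 in Day-0 dogs.

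With each gene taken by its brightest probe set, RPS13 was the lowest small subunit gene at Day-3, Week-2 and End-stage. Its changes were -0.20, -0.19 and -0.21 (SE 0.14). RPS4X read 8.29, 8.54 and 8.21 in End-stage dogs against 8.02, 8.02 and 8.03 in Day-0 dogs, a change of 0.33 (SE 0.16, adjusted p = 0.623). RPS14 changed by -0.09, -0.27, -0.10 and -0.07 (SE 0.19) and RPS12 by 0.20, -0.25, -0.08 and -0.11 (SE 0.26), each by its brightest probe set. The 5 tested RPS14 probe sets spanned -0.59 to 0.32 at Week-2 and -0.70 to 0.25 at End-stage, with 4 of 5 below Day-0 each time. The Week-1 change of RPS12 was 0.03 without Day-0 dog 1, which read 10.08 against 9.35 and 9.12 in the other Day-0 dogs. RPSA, which also serves as a laminin receptor, stayed between -0.05 and 0.02 of Day-0 by its brighter probe set, while the dimmer one changed by 0.36, 0.39, 0.08 and 0.49 (SE 0.25). RPS27L, a p53-induced paralogue of RPS27, stayed between -0.02 and 0.05.

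Different probe sets of a gene often disagreed on the direction. Of the 56 member genes with at least 2 tested probe sets, 29, 34, 29 and 29 had changes of both signs against Day-0 at Day-3, Week-1, Week-2 and End-stage. The median SD among the probe sets of a gene was 0.07, 0.13, 0.12 and 0.15 (log2) at these stages.

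The initiation factors had class medians of 0.03, 0.01, -0.03 and -0.03 at the 4 stages, with 23, 20, 15 and 17 of 38 genes above Day-0. The initiation gene with the smallest p for the mean of the paced groups was EIF2A, a factor that can deliver the starting transfer RNA apart from the EIF2 complex. It read 9.02, 8.90 and 9.02 in Day-0 dogs, 9.0, 8.54 and 8.73 in Day-3 dogs, 8.66, 8.55 and 8.79 in Week-1 dogs, 8.51, 8.54 and 8.65 in Week-2 dogs, and 8.41, 8.68 and 8.53 in End-stage dogs. From Week-1 on, each paced dog lay below each Day-0 dog. The change was -0.22, -0.31, -0.41 and -0.44 at the 4 stages, each with an SE of 0.13, and -0.35 (SE 0.10) for the mean of the paced groups. With adjusted p values of 0.722, 0.459, 0.2, 0.269 and 0.145, EIF2A was not called in any of these comparisons.

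Of the subunits of EIF2 itself, EIF2S1, the alpha subunit whose phosphorylation slows initiation, changed by 0.09, -0.06, -0.08 and -0.12 (SE 0.11). The gamma subunit EIF2S3 was lower in each paced group by its brighter probe set, with changes of -0.19, -0.24, -0.29 and -0.24 (SE 0.13). Its dimmer probe set changed by -0.003, -0.12, -0.15 and -0.007. The beta subunit EIF2S2 changed by 0.10, 0.03, 0.02 and 0.06 (SE 0.11) by the brightest of its 3 probe sets. Of these 3, 2 lay below Day-0 at Week-1 and at End-stage, the lowest at -0.44 and -0.40. Of the 7 genes with EIF2 symbols outside the kinases, 5, 5, 6 and 5 lay below Day-0 by their brightest probe sets.

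Among 11 tested EIF3 subunits, EIF3J and EIF3K had higher means than Day-0 at each stage by their brightest probe sets. So did EIF3F by both of its probe sets, with changes between 0.10 and 0.28. EIF3J, a loosely bound subunit, read 9.63, 9.15 and 9.50 in Day-0 dogs, 9.94, 10.26 and 9.66 in Day-3 dogs, 9.90, 9.90 and 9.46 in Week-1 dogs, 9.75, 9.87 and 9.96 in Week-2 dogs, and 9.79, 9.68 and 9.61 in End-stage dogs. All Day-3 and Week-2 dogs lay above all Day-0 dogs. The Day-3 change was 0.53 (SE 0.17, adjusted p = 0.373), and a dimmer EIF3J probe set changed by 0.14 (SE 0.19) there and by -0.08 at End-stage.

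EIF3K read 10.50, 10.92 and 10.56 in Week-1 dogs, against 10.25, 10.17 and 10.37 in Day-0 dogs, with no overlap. Its change was 0.08, 0.40, 0.43 and 0.35 (SE 0.17) at the 4 stages, and its dimmer probe set changed by 0.30, 0.35, 0.45 and 0.56 (SE 0.23). The lowest adjusted p of these was 0.345. EIF3E read 7.59, 7.48 and 7.57 in End-stage dogs against 8.09, 8.01 and 7.79 in Day-0 dogs by its dimmer probe set, a change of -0.41 (SE 0.12, adjusted p = 0.269), while its brighter probe set changed by 0.03 (SE 0.14).

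EIF3G, a subunit that binds RNA, changed by 0.44 at Week-1 and by -0.51 at Week-2, with an SE of 0.55. It was dim, and its 3 End-stage dogs read 4.56, 5.85 and 2.97. Medians over the 11 EIF3 genes were 0.03, 0.02, 0.02 and 0.00 at the 4 stages.

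At the cap, EIF4E, which binds it, changed by 0.04, -0.24, -0.21 and -0.26 (SE 0.16) by its brighter probe set and by at most 0.13 by the other. EIF4A2, a helicase that unwinds the leader, changed by 0.02, 0.08, 0.06 and 0.07 (SE 0.17). EIF4G2, a scaffold related to EIF4G1 that does not bind EIF4E, changed by 0.00, -0.07, -0.07 and -0.08 (SE 0.15). The dimmer probe sets of EIF4A2 and EIF4G2 changed by -0.24 and -0.27 at End-stage. EIF4B, a helper of the helicase, changed by -0.33 (SE 0.21, adjusted p = 0.767) at End-stage by its brighter and by -0.02 (SE 0.30) by its dimmer probe set.

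Of the binding proteins that hold EIF4E back, EIF4EBP1 and EIF4EBP3 were tested, and neither passed the threshold. EIF4EBP1 read 8.0, 8.13 and 8.15 in Day-0 dogs, 8.72, 8.59 and 8.29 in Day-3 dogs, 8.25, 8.73 and 7.98 in Week-1 dogs, 8.45, 8.63 and 8.69 in Week-2 dogs, and 8.14, 8.42 and 8.47 in End-stage dogs. All Day-3 and Week-2 dogs lay above all Day-0 dogs, while the Week-1 and End-stage groups overlapped with them. Its changes were 0.44, 0.23, 0.50 and 0.25 (SE 0.17), with a lowest adjusted p of 0.3.

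EIF4EBP3 had the highest change of an initiation gene at each stage, each gene taken by its brightest probe set: 0.82, 0.70, 0.63 and 0.74 (SE 0.31), with a lowest adjusted p of 0.48. Each paced dog lay above each Day-0 dog, at 4.63 to 5.79 in paced dogs and 4.31 to 4.59 in Day-0 dogs. Its Day-0 mean of 4.47 lay under the lowest signal that was tested, so that it passed the filter through the paced groups. The kinases EIF2AK1 and EIF2AK4, which phosphorylate EIF2S1, changed by 0.20, 0.05, -0.15 and 0.10 (SE 0.21) and by -0.14, -0.08, -0.14 and -0.05 (SE 0.15).

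Of the other factors, EIF6, which keeps free large subunits from joining, changed by -0.12, -0.01, -0.01 and 0.01 (SE 0.12). EIF5A, which helps the ribosome past stalling stretches, changed by 0.32, 0.05, -0.03 and -0.09 (SE 0.38) and was dim. Neither factor differed beyond the spread between dogs.

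Among the elongation factors, all 4 subunits of EEF1 lay below Day-0 at every stage by their brightest probe sets, none past the threshold. EEF1D, a subunit of the exchange complex, read 11.18, 11.37 and 11.29 in Day-0 dogs, 10.70, 11.19 and 10.69 in Day-3 dogs, 10.46, 11.31 and 10.85 in Week-1 dogs, 10.84, 11.08 and 11.07 in Week-2 dogs, and 10.46, 10.99 and 10.78 in End-stage dogs. All Week-2 and End-stage dogs lay below all Day-0 dogs. Its changes were -0.42, -0.40, -0.29 and -0.54 (SE 0.20), the last with an adjusted p of 0.444, and its dimmer probe set changed by -0.13, -0.19, 0.12 and -0.17 (SE 0.33).

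EEF1A1, the carrier of transfer RNA, changed by -0.27, -0.27, -0.06 and -0.32 (SE 0.23) by its brighter probe set. Its dimmer probe set read 5.04, 5.08 and 5.17 in Day-3 dogs and 4.96, 4.79 and 5.36 in End-stage dogs, against 5.72, 5.64 and 5.46 in Day-0 dogs, with changes of -0.51 and -0.57 (SE 0.24) and no overlap. EEF1B2 changed by -0.09, -0.04, -0.12 and -0.11 (SE 0.12) by its brighter and by -0.13, -0.03, -0.25 and 0.11 (SE 0.21) by its dimmer probe set, and EEF1G by -0.03, -0.02, -0.05 and -0.01 (SE 0.17). The direction for EEF1G at Week-2 flipped to 0.03 under quantile normalisation. EEFSEC, which delivers selenocysteine, had the highest change of an elongation symbol, 0.97 (SE 0.58) at Day-3, where its dogs read 5.83, 6.66 and 5.07 against 5.68, 4.87 and 4.10 in Day-0 dogs.

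**Figure D2:**
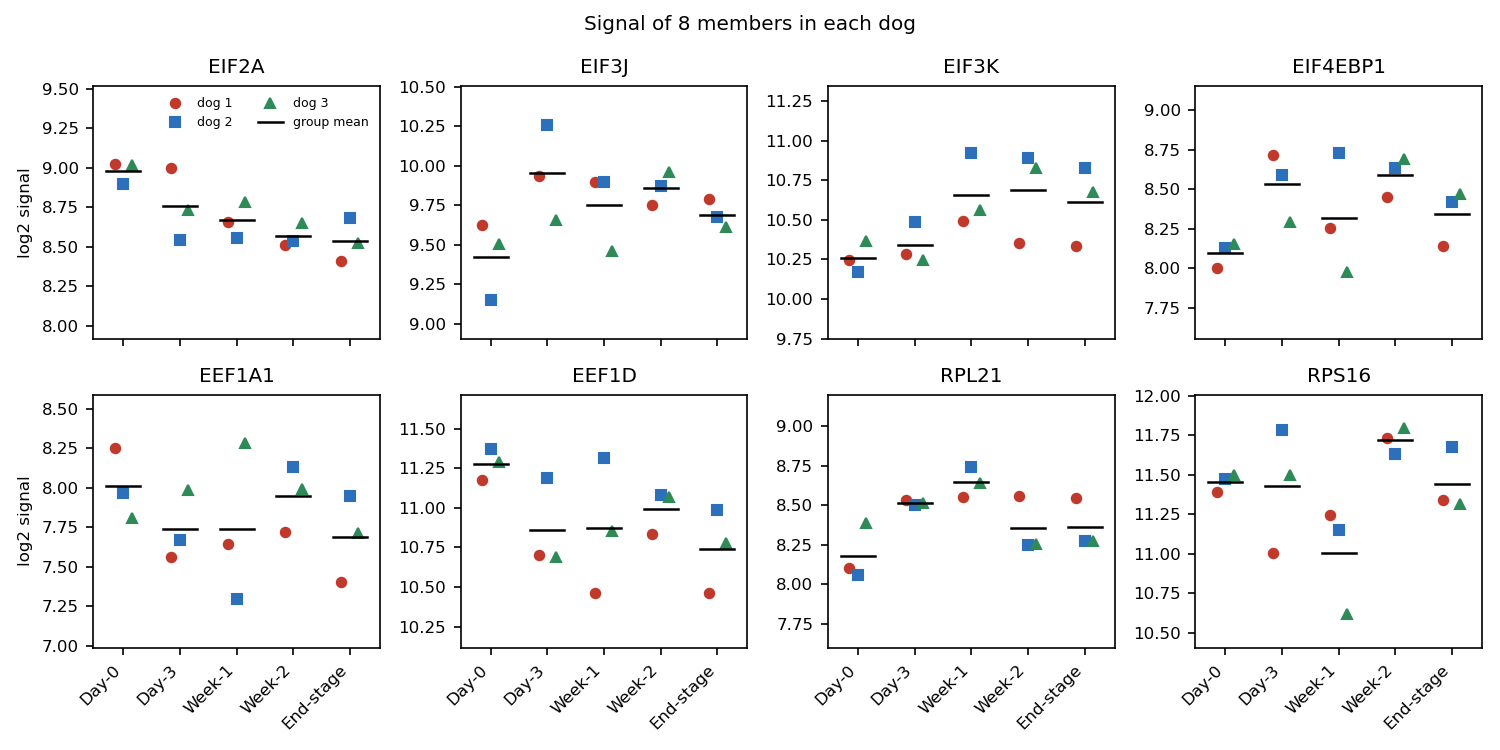
Log2 signal of 8 members in each dog (symbols by dog number) with the group mean (line), over the 5 groups; each axis spans 1.6 log2 units, and RPL21 is shown by the dimmer of its probe sets. EIF2A and EEF1D read lower in End-stage than in Day-0 dogs, EIF3J read highest at Day-3, and RPS16 was low at Week-1 and high at Week-2.

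Some of these readings passed a threshold when the 45 arrays were fitted with the dog as a random block in place of means per dog. That fit used the same correlation between arrays of a dog, 0.292, for all probe sets. For large subunit probe sets the median SD was 0.163 between isolations and 0.235 between dog means, and for small subunit ones 0.173 and 0.247. Where dogs differ more than the shared correlation allows, its p values are too small, so its calls are weaker evidence than those from dog means. This fit called EIF3J at Day-3 (0.53, adjusted p = 0.0093), beside 1.91% of all probe sets. It called RPL21 (0.46), RPS16 (-0.45) and EIF3K (0.40) at Week-1 beside 2.64%, EIF3K (0.43) and EIF3J (0.44) at Week-2 beside 3.38%, and EEF1D (-0.54) and EIF3E (-0.41) at End-stage beside 2.25%. For the mean of the paced groups it called 5 members, RPL21, EIF3K, EIF3J, EIF2A and EEF1D, beside 4.9%. Members called were 1, 3, 2, 2 and 5 of 216, or 0.463%, 1.39%, 0.926%, 0.926% and 2.31%, each below the share of all probe sets. At Week-2 against Week-1 it called the 3 RPS16 probe sets, 1.39% of members, beside 0.21% of all probe sets, and 0 members in the other consecutive comparisons, beside 0.0489% and 0.021%.

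The larger difference in ribosomal protein signal lay between the dogs of a group. The labels number the dogs of each group from 1 to 3, without saying what a number stands for. A class score per dog was taken as the median, over the genes of a class, of the log2 signal centred on its mean over all dogs. The large subunit score of dog 1 was -0.10, -0.24, -0.23, -0.17 and -0.22 in Day-0, Day-3, Week-1, Week-2 and End-stage dogs, and the 10 scores of dogs 2 and 3 lay between 0.06 and 0.18. The small subunit score of dog 1 lay between -0.27 and -0.14, and those of dogs 2 and 3 between 0.04 and 0.20. Dog 1 was therefore the lowest of its group in all 5 groups in both classes.

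The group means of the large subunit score spanned 0.02 and those of the small subunit score 0.05, while dogs within a group had an SD of 0.18 for both. For initiation factors that SD was 0.05, and dog 1 was lowest in 4 of 5 groups at -0.09 to 0.01, against -0.04 to 0.06 in dogs 2 and 3. For elongation factors, dog 1 was lowest in the 4 paced groups and highest in Day-0, at 0.19.

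**Figure D3:**
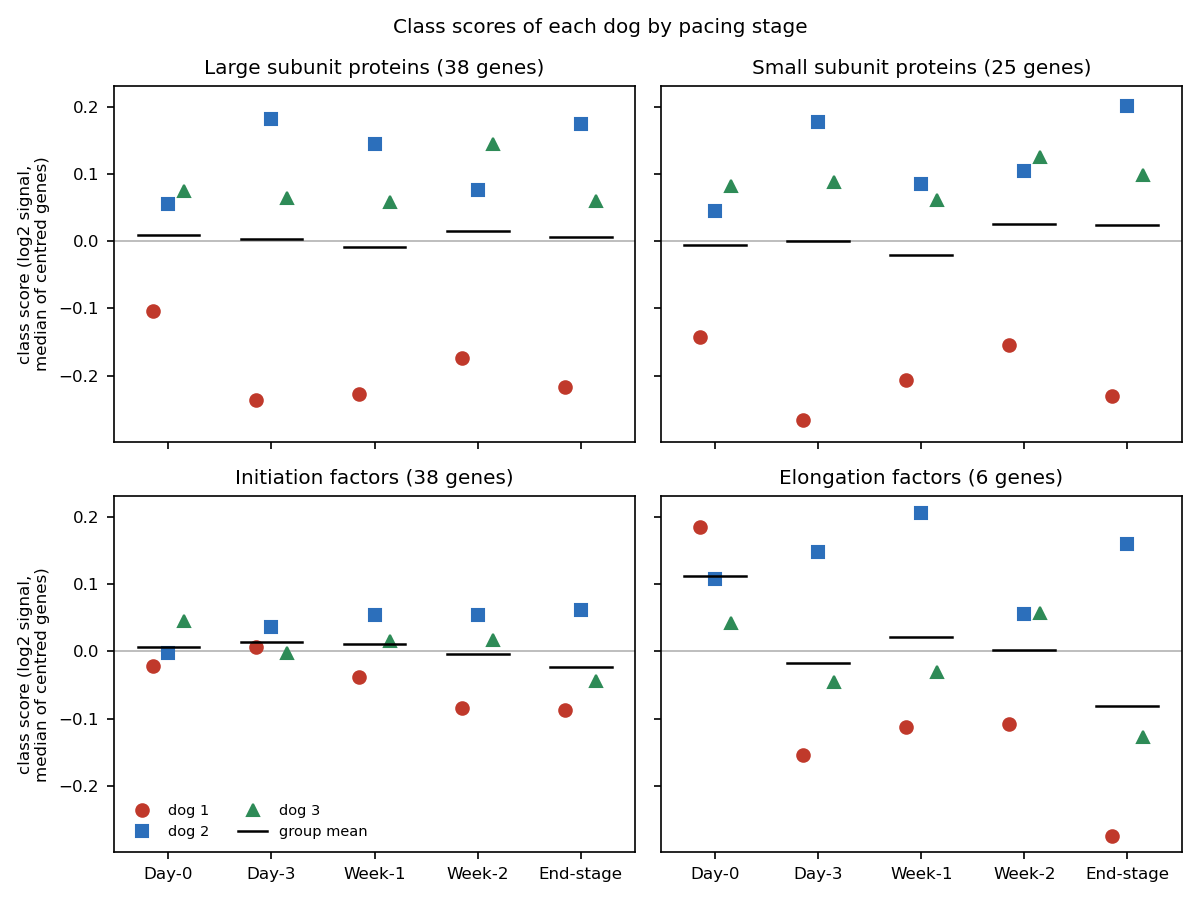
Class score of each dog (median over genes of log2 signal centred on the mean of all dogs) by group, with symbols for the dog number and a line for the group mean. For both subunits the 5 dogs numbered 1 lie below 0 and all others above 0, while the group means lie within 0.03 of 0.

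Single arrays showed the same division. Of the 15 arrays of dogs numbered 1, 14 had a large subunit score below 0, and of the other 30 arrays 26 lay above 0. For the small subunit 14 of 15 lay below 0, and 27 of 30 above. The SD of the score between isolations of a dog was 0.08 for both subunits.

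The dog number was then tested as a term beside the group, a test added after this pattern had been seen. The moderated F test called 64 of 216 members after Benjamini-Hochberg adjustment, or 29.6%, beside 4.24% of all probe sets. By class these were 37 of 93 large subunit probe sets (39.8%), 19 of 54 small subunit (35.2%), 5 of 60 initiation (8.33%) and 3 of 9 elongation probe sets (33.3%). Of the 64, 60 were lower in dogs numbered 1 than in the mean of dogs 2 and 3.

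RPS29, a small zinc-binding protein of the small subunit, had the smallest adjusted p of a member, 0.0013, with a log2 difference of dogs numbered 1 from the mean of dogs 2 and 3 of -0.46. RPS23, at the decoding centre, differed by -0.39 (adjusted p = 0.0015), RPL13A by -0.39 (adjusted p = 0.0019) and RPL37A by -0.46 (adjusted p = 0.0021). RPL9 differed by -0.50 (adjusted p = 0.0048). In each of these 5 genes, dog 1 was the lowest of its group in all 5 groups. They were picked by the test on these same values, so that order is no further support. It held for 31.9% of the 216 members and 3.13% of all tested probe sets.

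Of the 35 ribosomal protein genes with at least 2 tested probe sets, 25 were lower in dogs numbered 1 by all of them, 9 had both signs (RPL12, RPL15, RPL21, RPL24, RPL35, RPL35A, RPS28, RPS4X and RPSA) and 1, RPS12, was higher by both of its probe sets (0.11 and 0.45). All 6 tested probe sets of RPL13A were lower in dogs numbered 1, with differences of -0.61 to -0.30, and 5 were called. All 8 of RPL17 (-0.38 to -0.01), all 6 of RPL4 (-0.46 to -0.31), all 7 of RPL29 (-0.27 to -0.06) and all 7 of RPS16 (-0.36 to -0.01) were also lower. RPL15 was mixed, with 5 of 7 lower, and a dim RPS28 probe set differed by 0.66 while the brightest differed by -0.36.

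Among initiation factors, EIF5B, which joins the subunits at the start codon, differed by -0.63 (adjusted p = 0.002) in its brighter and by 0.17 in its other probe set. It read 8.09, 8.25, 8.26, 8.02 and 8.18 in dogs numbered 1 and 8.60 to 9.0 in dogs 2 and 3, without overlap. EIF4A2 and EIF4G2 differed by -0.35 and -0.29 (adjusted p = 0.0079 each), while their dimmer probe sets differed by 0.08 and 0.11. EIF4G3 and EIF5 were higher in dogs numbered 1, by 0.48 and 0.33. Of the elongation factors, EEF1G differed by -0.35 and EEF1D by -0.34, while EEFSEC was higher by 0.60.

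Over genes, the median difference of dogs numbered 1 from dogs 2 and 3 was -0.30 for the large and -0.31 for the small subunit, against 0.03 over all tested probe sets. Dog 1 was the lowest of its group in all 5 groups for 42 of 93 large and 20 of 54 small subunit probe sets, or 45.2% and 37%, beside 3.13% of all tested probe sets. Dog 1 was below the mean of dogs 2 and 3 for 82 of 93 large and 49 of 54 small subunit probe sets, beside 44.1% of all. It was the highest in all 5 groups for 3.27% of all probe sets, and for 3 of 216 members (1.39%). By the array maker's suffix, the median difference was -0.10 for 97 member probe sets of the unique kind, -0.22 for 57 with the suffix s and -0.31 for 62 with the suffix x. These sets pool all member classes, so suffix, class and brightness are not told apart here. The difference also moved with brightness. Of the probe sets in the brightest 10% that are no members, 15.6% were called, their median difference was -0.10, and in 18.3% dog 1 was lowest in all 5 groups. In 71.5% of them, dog 1 was below the mean of dogs 2 and 3. Of the 107 members in that brightest 10%, 52.3% were called, with a median difference of -0.30.

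**Figure D4:**
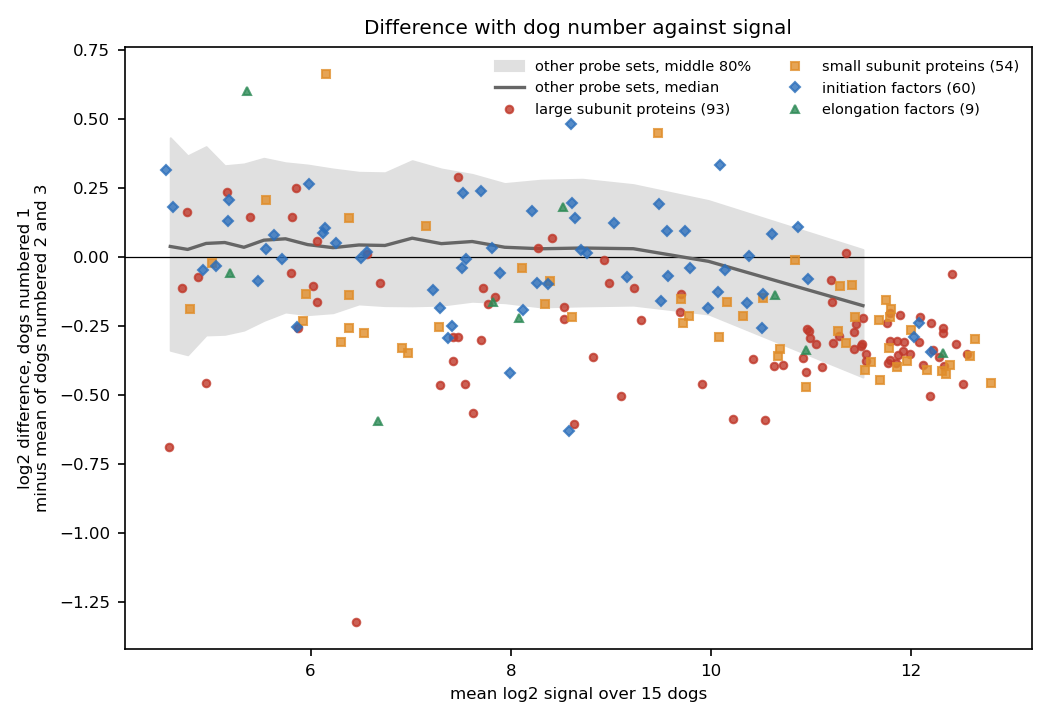
Log2 difference of dogs numbered 1 from the mean of dogs 2 and 3 against mean log2 signal, for the 216 tested members by class and for the other tested probe sets in 20 bins of signal (line for the median, grey band for the middle 80%). The median of the other probe sets falls to -0.18 in the brightest bin, and ribosomal proteins lie mostly below 0 there and at lower signals.

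Other measurements of the dogs moved with the number. The summed share of signal of ribosomal protein probe sets was 4.70% to 4.97% in dogs numbered 1, 5.16% to 5.76% in dogs numbered 2 and 5.24% to 5.56% in dogs numbered 3. The summed signal of the 10 tested cardiomyocyte markers was 69680 to 75000 in dogs numbered 1 and 85480 to 112300 in dogs 2 and 3, with 9 of 10 markers called lower. The 99th percentile of an array was 11.7 to 11.9 (log2) in dogs numbered 1 and 11.9 to 12.2 in the others. The GAPDH 3-prime over 5-prime ratio averaged 0.916, 0.951 and 0.98 in dogs numbered 1, 2 and 3, and the actin ratio 0.228, 0.154 and 0.197. Their part in the ribosomal protein difference was not tested.

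**Figure D5:**
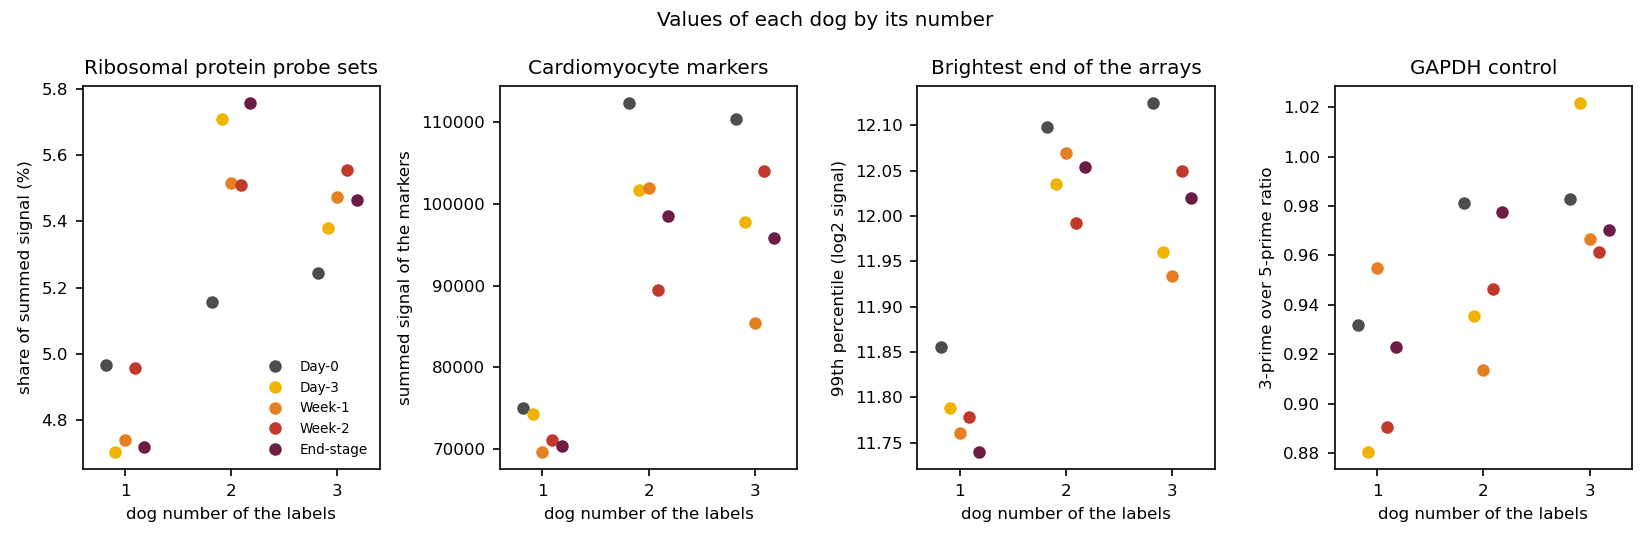
Share of summed signal of ribosomal protein probe sets, summed signal of 10 cardiomyocyte markers, 99th percentile of the arrays and GAPDH 3-prime over 5-prime ratio of each dog, against the dog number of the labels, with colours for the group. In the first 3 panels the 5 dogs numbered 1 lie below all others; in the last, dogs numbered 1 and 2 overlap.

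The difference with dog number depended on how the arrays were scaled. Under quantile normalisation, which gives every array the same distribution of signals, the medians were -0.09 for the large and -0.08 for the small subunit, and 8 and 0 probe sets were called. Leaving out dog 1 at Week-1 and dog 1 at End-stage, the medians were -0.26 and -0.30, and 1 and 2 probe sets were called. Calls over all probe sets under these settings are not given here, so the lower counts are not read as particular to ribosomal proteins. With the number as a block, 0 of 216 members were called at Day-3, Week-1, Week-2 and End-stage and for the mean of the paced groups, beside 0%, 0.119%, 0.615%, 0% and 1.53% of all probe sets. Between consecutive stages it also called 0 members, beside 0%, 0% and 0.00699%. At an unadjusted p under 0.05 it held 9, 10 and 11 members between consecutive stages, beside 6.33%, 7.48% and 5.52% of all probe sets, and 9, 17, 17, 17 and 18 in the comparisons with Day-0, beside 10.5%, 11.9%, 13.9%, 11.2% and 14.6%.

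Other genes of translation were counted from lists. Of 9 tested genes of termination, recycling and poly(A) binding, 0 passed the limma threshold in any comparison with Day-0; PAIP2, which restrains the poly(A) binding protein, had the smallest p at End-stage, with a change of -0.35 (adjusted p = 0.357). Of 31 tested ribosome biogenesis genes 0 passed; POLR1C, a subunit of RNA polymerases I and III, changed by -0.34 at Day-3, -0.47 at Week-2 and -0.51 at End-stage, with a lowest adjusted p of 0.166. NPM1, a nucleolar chaperone of ribosome assembly, changed by -0.33 (adjusted p = 0.32) at Week-1. Of 10 tested genes of the mTOR pathway and the S6 kinases 0 passed, with MTOR at 0.61 (adjusted p = 0.396) at End-stage.

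Of 8 tested genes of the integrated stress response, which follows phosphorylation of EIF2S1, 0 passed; PPP1R15A, which helps reverse that phosphorylation, changed by 1.22 (adjusted p = 0.384) at Week-2. Only 2 genes of the cytosolic aminoacyl-tRNA synthetase list were tested, AIMP2 and FARSB, and both lay below Day-0 at all stages without passing. At an unadjusted p under 0.05, these 5 lists held 4, 3, 6 and 6 of their 60 tested genes at Day-3, Week-1, Week-2 and End-stage. These shares were 6.67%, 5%, 10% and 10%, against 8.07%, 9%, 11.2% and 8.23% of all probe sets, and are no result about the lists.

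The mitochondrial ribosome, which translates the few messengers of the organelle, gave other medians than the cytosolic one. Its 54 genes, taken over both subunits, had medians of -0.14, -0.16, -0.20 and -0.15 at the 4 stages, and 13, 8, 6 and 7 of them lay above Day-0. The counts were 17, 18, 18 and 21 of 38 cytosolic large subunit genes and 12, 11, 13 and 15 of 25 small subunit genes. None passed the threshold at a single stage. For the mean of the paced groups, MRPL38 passed with a change of -0.57 (SE 0.11, adjusted p = 0.048), and no cytosolic member did. This was 1 of the 54 genes, beside 0.301% of all probe sets. The difference between both ribosomes was not tested.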

How the data were processed

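Left ventricular RNA of 15 dogs was hybridised to 45 one-colour Affymetrix canine arrays. The authors deposited a linear signal intensity per probe set, made with GCOS 1.4 and MAS5 per the submitters' processing notes; the trimmed mean of each array was 150.02 to 150.03, and a genome build is not given in the sources used here. These intensities were taken to log2, averaged over the 3 isolations of a dog, and the dimmest 40% by mean were left out (lowest tested signal 22.8), which kept 14302. Groups were compared with limma 3.58.1 (R 4.3.3, statmod 1.5.0; lmFit, eBayes with an intensity trend) over all 15 dogs, and p was adjusted by Benjamini-Hochberg over all tested probe sets with a threshold of 0.05. The number of dogs limits the precision, since 3 a group is few.

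Genes were named from the array annotation of 2016; 256 of the 266 member probe sets matched a RefSeq symbol (assembly UU_Cfam_GSD_1.0), used for names only. A gene was represented by its brightest tested probe set. Named genes were every member past the threshold, in each class the 3 with the smallest p in a comparison with Day-0, genes of distinct role, the lowest and highest change of a class, and the 2 with the smallest p in another list; dimmer probe sets, RPS27, EIF3E, EIF4B and the genes of the dog-number test were chosen after their values were seen. The members and lists were chosen with earlier results of these data known. Scripts were tested on simulated data. The labels number dogs 1 to 3 in each group without saying that a number is shared; deviations of same-numbered dogs correlated over 0.1 in all 3 pairs for 3 of 10 pairs of groups over all probe sets (0.167, 0.296 and 0.318 for Week-1 and Day-3) and for 5 of 10 over the members (0.515, 0.259 and 0.248 for Day-3 and Day-0, 0.265, 0.221 and 0.152 for Week-1 and Day-0, 0.423, 0.451 and 0.413 for Week-1 and Day-3). The main model had no block, and values with the number as a block are given beside it. Alternatives were other filters, offsets, normalisations and probe sets, no intensity trend, single arrays in place of dog means (the dog then a random block), the number as a block, and leaving out each dog or isolation.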

Additional observations from a re-analysis of the deposited data

How the results depend on the processing

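Class medians were computed for 20 combinations of class and comparison under 356 alternative settings, and 351 stayed within 1 SD of the main value, an SD that is wide for ribosomal proteins. Leaving out 1 dog, the large subunit medians spanned -0.075 to 0.091 at Week-1 and -0.053 to 0.095 at Week-2, and the small subunit medians -0.067 to 0.068 and -0.058 to 0.118. Of the initiation factors, the Day-3 median was -0.025 with arrays centred on the median and -0.037 to 0.067 leaving out 1 dog, their Week-2 median was -0.113 with median centring, and their End-stage median was -0.0499 to 0.032 leaving out 1 dog and 0.032 without dog 1 of both Week-1 and End-stage. Members called were 0 under each alternative other than the fit of the 45 single arrays; leaving out 1 dog gave 0 to 0. That fit called 1 at Day-3, 3 at Week-1, 2 at Week-2, 2 at End-stage, 5 for the mean of the paced groups, 3 at Week-2 against Week-1 and 5 in the test over all groups. For the test over all groups the share of all probe sets is not given here, so its count is no result about the members. With the dog number as a replicate block, 0 members were called in each comparison. Over all probe sets it called 17 at Week-1 (4 without it), 88 at Week-2 (12), 0 at End-stage (2), 219 for the mean of the paced groups (43) and 1 at End-stage against Week-2 (0). Members differing with dog number were 20 of the large subunit with median centring, 13 and 12 (large and small subunit) with no intensity trend, 13 and 12 without isolation 3, 8 and 0 under quantile normalisation, 1 and 2 without that pair of dogs, and 14 to 44 and 12 to 19 leaving out 1 dog, the lowest without End-stage dog 1; their medians were -0.0935 and -0.0829 under quantile normalisation. The calls over all probe sets beside these counts are not given here, so the counts are not read as particular to ribosomal proteins. Of 738 settings for 39 named genes, 724 kept direction and call, 4 passed the threshold in the 45-array fit and 10 changed sign. These were EEF1G at Week-2 (0.0344 under quantile normalisation, -0.16 to 0.0483 leaving out 1 dog), EIF4G2 at End-stage (0.0116 under quantile normalisation), EIF4A2 (-0.0403 to 0.18) and RPS12 (-0.45 to 0.0298) at Week-1 and RPS27L at End-stage (-0.0397 to 0.14) leaving out 1 dog, and RPSA, Week-1 vs Day-0 (0.00244 without isolation 3, 0.0336 without that pair of dogs, -0.13 to 0.0336 leaving out 1 dog). The cause was not tested. Dim probe sets such as EIF3G and EEFSEC had the widest errors of the members named.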
